A study of Mus musculus with 28 samples.

Results

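The nuclear genes of oxidative phosphorylation are described here in the nascent RNA of mouse embryonic stem cells (mESCs). The members were chosen by symbol alone: those that begin with Nduf, Uqcr or Atp5, those that begin with Cox followed by a digit from 4 to 8, and Sdha, Sdhb, Sdhc and Sdhd. They numbered 94 of the 24984 rows in each of 3 tables, with 47 assigned to complex I, 4 to complex II, 8 to complex III, 18 to complex IV and 17 to complex V. These symbols also take in 8 assembly factors, which are counted with the complexes though they are not subunits. Elongin A (EloA, gene Eloa) is a subunit of the Elongin complex, which acts on RNA polymerase II (Pol II), and the study compared WT with EloA null mESCs to ask what EloA contributes to transcription and elongation. Both genotypes came from another laboratory and are named CCE28 in the growth protocol, while a treatment protocol of the labels names CJ7. They were grown on embryonic fibroblast feeders with LIF, PD0325901 and CHIR99021, depleted of feeders and plated on gelatin. Nascent RNA was labelled with 2 mM bromouridine (BrU) and captured with an antibody (Bru-seq) in 3 conditions with 2 libraries per genotype, 12 in all. For steady state, cells took up BrU for 10 min. For recovery, transcription elongation was blocked with 1 µM flavopiridol (FP) for 60 min, and after the drug had been washed away cells took up BrU for 5 min or for 10 min. Whether the WT and the null cells are each 1 clone is not given in the sources used here. The libraries of a group are described as independent experiments, with no word on whether these were separate cultures, so p-values measure only the spread between these libraries.

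Oxidative phosphorylation takes place in the inner mitochondrial membrane. Complex I oxidizes NADH and complex II oxidizes succinate, complex III passes the electrons to cytochrome c, complex IV hands them to oxygen, and complex V, the ATP synthase, uses the proton gradient that complexes I, III and IV build. Most subunits are encoded in the nucleus, and a few, not analysed here, in the mitochondrial genome. Embryonic stem cells rely strongly on glycolysis and express the nuclear subunits nonetheless.

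Library sizes worked out from the steps between the RPKM values ran from 23138348 to 27954236 reads in steady state, from 9857527 to 17272752 at 5 min and from 18820714 to 28547356 at 10 min. The summed RPKM of 20 pluripotency markers was 275 to 330 in steady state and 282 to 502 in recovery, that of 20 feeder fibroblast markers 3.17 to 7.85 over all 12 libraries, and that of 12 early differentiation markers 1.17 to 4.00. Of the feeder markers, 0 to 3 were listed at 0 in a library, and Col1a1 ranged from 0.385 to 1.44 RPKM. At 5 min the summed feeder level was 5.23 and 5.51 in WT and 4.23 and 3.17 in the libraries labelled EloA null, and the part of feeder RNA in the results below was not tested. In such bulk samples, fewer cells of a type and less RNA per cell cannot be told apart. Nascent RNA of the targeted gene Eloa was not lost: it was 1.18 and 1.16 RPKM in WT and 1.96 and 1.89 in the libraries labelled EloA null in steady state, a log2 ratio of 0.67 (SE 0.077, limma adjusted p = 0.0999). It was also higher without overlap at 5 min (log2 ratio 0.95) and 10 min (0.67). Nascent RNA does not measure EloA protein, which the paper examined by immunoblot in both genotypes. In null cells the paper reports an EloA CUT&RUN signal near background at the rRNA gene Rn45s. Since the RNA does not show the loss, those libraries are called "labelled EloA null", and every direction below rests on that label. The first steady-state library of that group has a genotype label of wild type and was placed by its title. Its Eloa level, 1.96 RPKM, was near the 1.89 of the other library of that group and above both WT values.

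Nuclear respiratory genes are known targets of the transcription factors NRF1, GABP (of the ETS family) and YY1. RefSeq promoters of GRCm38.p6, from 250 bases before to 50 after the gene start, were at hand for 76 of the 94 members and were searched on both strands for an NRF1 motif of 10 letters, the ETS motif CCGGAAG and a YY1 motif of 11 letters. Counted once per promoter, the NRF1 motif was in 18 promoters (23.7%), against 11.9% of 8459 promoters of genes expressed in steady state and 4.82% of all 27025. The ETS motif was in 17 (22.4%, against 20.8% and 9.14%) and the YY1 motif in 5 (6.58%, against 3.03% and 1.08%). At least 1 of the 3 was found in 34 promoters (44.7%, against 32.3% of the expressed and 13.8% of all promoters). By complex these were 18 of 40 in complex I, 3 of 3 in complex II, 3 of 5 in complex III, 3 of 13 in complex IV and 7 of 15 in complex V. The 200 bases before the start are shown for 4 members, the 3 with 3 motif matches before the start and Sdhd, a complex II gene with an NRF1 and an ETS match. They are the windows chr13:74350241-74350440 (Sdha), chr16:37654369-37654568 (Ndufb4), chr5:115348959-115349158 (Cox6a1) and chr9:50603850-50604049 (Sdhd), all on the minus strand and written 5′ to 3′ with the motif matches in capitals.
Sdha: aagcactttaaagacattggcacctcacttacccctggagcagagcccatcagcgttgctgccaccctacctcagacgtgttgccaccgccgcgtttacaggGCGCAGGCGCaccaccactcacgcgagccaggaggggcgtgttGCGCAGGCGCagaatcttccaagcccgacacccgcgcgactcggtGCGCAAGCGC
Ndufb4: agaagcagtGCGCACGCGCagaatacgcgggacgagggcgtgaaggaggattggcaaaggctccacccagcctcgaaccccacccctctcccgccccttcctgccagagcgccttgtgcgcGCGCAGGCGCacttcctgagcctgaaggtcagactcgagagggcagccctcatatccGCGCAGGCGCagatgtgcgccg
Cox6a1: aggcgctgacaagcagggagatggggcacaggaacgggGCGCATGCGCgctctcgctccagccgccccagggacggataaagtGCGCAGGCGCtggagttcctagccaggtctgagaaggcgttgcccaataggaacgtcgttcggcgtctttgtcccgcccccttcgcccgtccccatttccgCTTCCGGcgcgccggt
Sdhd: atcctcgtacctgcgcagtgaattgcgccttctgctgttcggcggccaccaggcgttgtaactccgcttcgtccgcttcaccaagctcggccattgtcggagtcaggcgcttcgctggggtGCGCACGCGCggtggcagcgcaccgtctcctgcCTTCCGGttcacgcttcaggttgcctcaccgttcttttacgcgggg
Sdha and Ndufb4 each carry 3 NRF1 matches, which begin 98, 55 and 10 bases before the start of Sdha and 191, 79 and 22 bases before that of Ndufb4. Cox6a1 carries 2 NRF1 matches and, 16 bases before the start, an ETS match. Matches on either strand are marked, so a motif can stand as its reverse complement, as CTTCCGG for the ETS motif. A match is a run of letters and was not tested as a binding site.

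In steady state, 89 of the 94 members passed the expression limit used here, a mean RPKM above 0.5 (the value the study uses) in at least 1 genotype, and their median WT level was 2.48 RPKM. RPKM relates reads to a length, here one that fitted summed introns. Levels of different genes are set side by side only as a description. Mean WT levels of these members ran from 0.277 to 12.4 RPKM. Cox5a, a nuclear subunit of complex IV at chr9:57521232-57532427, led with 13.1 and 11.8 RPKM in WT and 11.7 and 10.1 in the libraries labelled EloA null. Atp5g2, which encodes the c subunit of the membrane ring of ATP synthase (chr15:102662868-102671047), reached 11.8 and 10.9 RPKM in WT and 13.0 and 11.1 in the other genotype. Atp5b, the catalytic beta subunit (chr10:128083307-128090388), followed with 11.9 and 10.3 against 12.3 and 12.2. The spread between replicates was as wide as the distance between these genes, so their order is not resolved.

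Complex I genes were lower, at a median of 1.90 RPKM in WT. Ndufa7, an accessory subunit (chr17:33824572-33838316), stood at 6.85 and 6.19 RPKM in WT and 6.77 and 6.35 in the libraries labelled EloA null. Ndufa4, first assigned to complex I and now known as a complex IV subunit (chr6:11900372-11907450), stood at 4.41 and 4.51 against 4.39 and 4.02. Among the 7 core subunits, which hold the flavin and the iron-sulfur clusters, the median WT level was 2.02 RPKM. The 4 genes of complex II spanned a similar range. Sdhd, a membrane anchor, was at 3.85 and 3.95 RPKM in WT, the flavoprotein gene Sdha at 3.74 and 3.51, the other anchor Sdhc at 2.20 and 2.14, and the iron-sulfur gene Sdhb at 1.38 and 1.16. In complex III, Uqcrb (4.24 and 4.45 RPKM in WT) and the core gene Uqcrc1 (3.69 and 3.71) led, and the Rieske iron-sulfur gene Uqcrfs1 was lowest with 1.84 and 1.74. Complex V had the highest median, 4.05 RPKM, against 2.90 in complex II, 2.81 in complex III and 3.39 over the 14 complex IV genes that passed the limit.

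**Figure D1:**
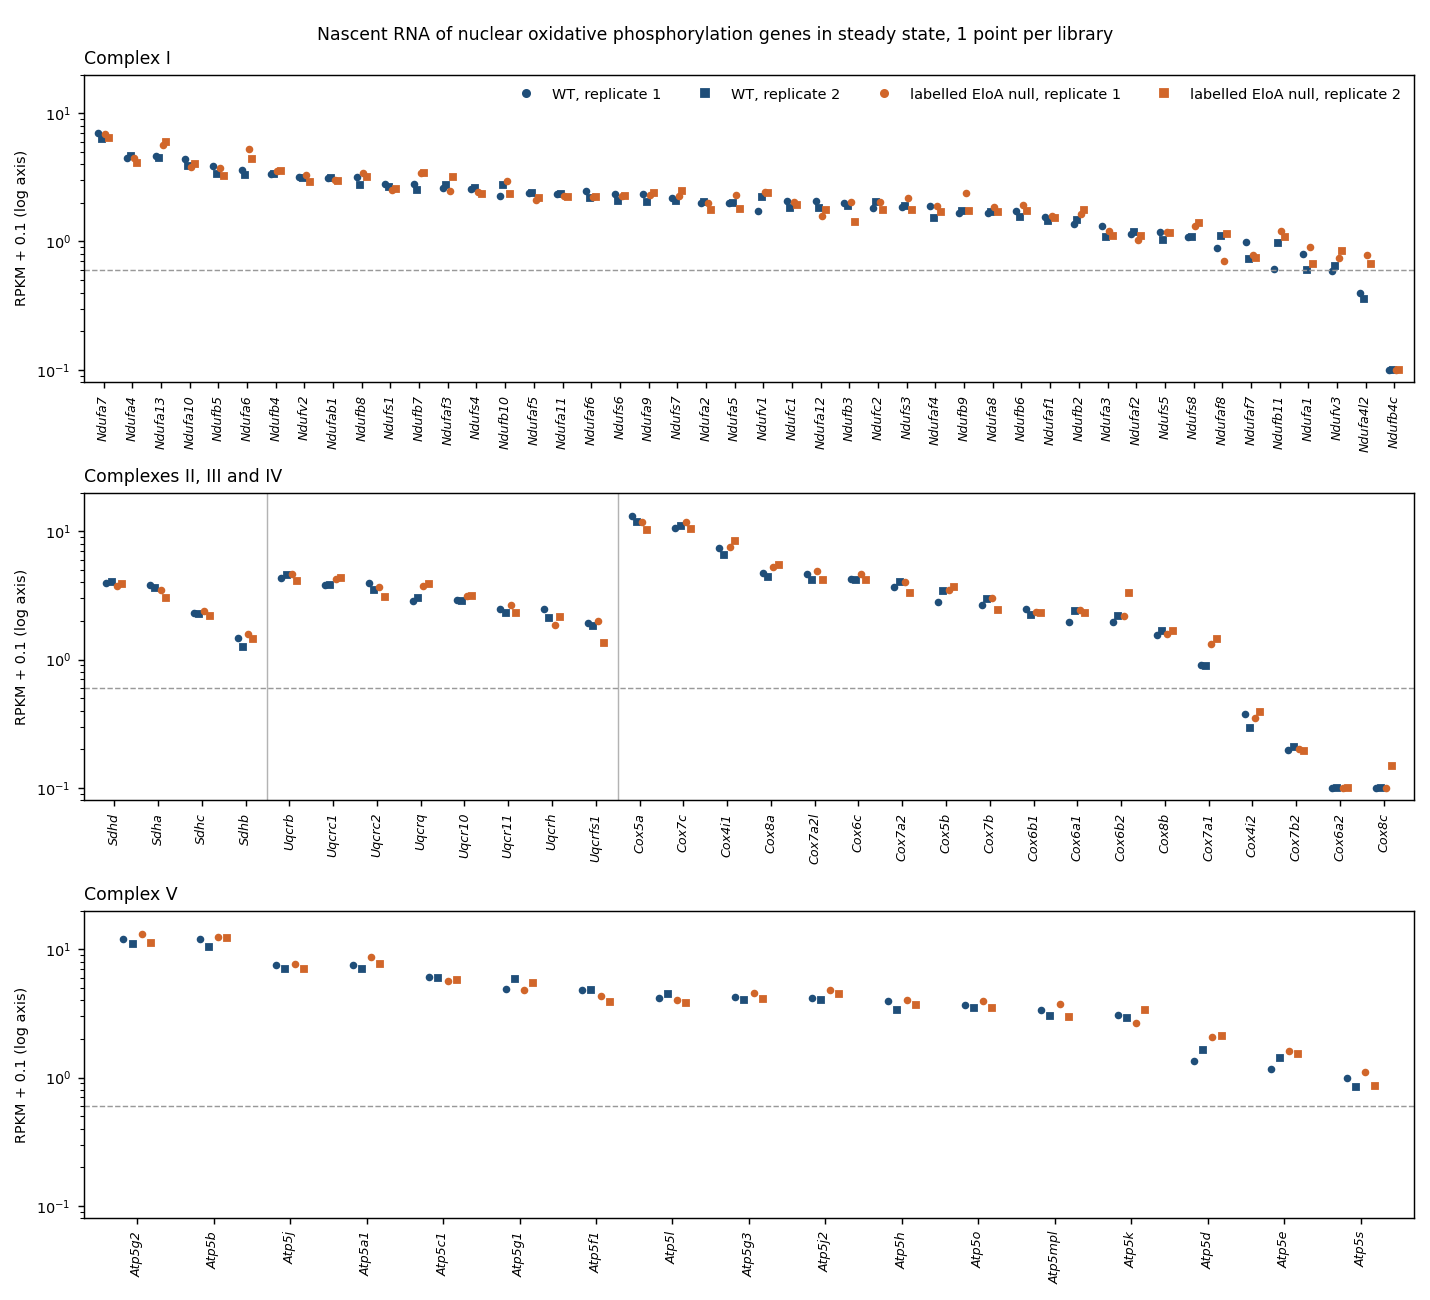
Steady-state level (RPKM + 0.1, log axis) of 93 of the 94 members, ordered by mean WT level within each complex, with 1 point per library (blue, WT; orange, labelled EloA null; circle, replicate 1; square, replicate 2). The dashed line marks the limit of 0.5 RPKM, below which 5 genes lie in both genotypes: Cox4i2, Cox7b2, Cox6a2, Cox8c and Ndufb4c.

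For most subunits with tissue-restricted isoforms, the common form stood well above the restricted one. Cox4i1, the common form of COX4, was at 7.28 and 6.41 RPKM in WT, while Cox4i2, known from lung and hypoxia, was at 0.276 and 0.191. Cox6a1 was at 1.86 and 2.27 RPKM, and the heart and muscle form Cox6a2 was listed at 0 in all 12 libraries. Of the COX7A forms, Cox7a2 (3.61 and 3.95) and Cox7a2l (4.51 and 4.10) stood above the muscle form Cox7a1 (0.809 and 0.788). Not every restricted form was silent. Cox6b2, known from testis, was at 1.88 and 2.10 RPKM beside 2.37 and 2.13 for Cox6b1, and Cox8b, a heart and muscle form in rodents, was at 1.46 and 1.57 beside 4.65 and 4.28 for Cox8a. Cox8c had at most 1 read in a library, and Cox7b2 stayed at 0.0954 and 0.108 RPKM against 2.58 and 2.89 for Cox7b. All 3 genes that encode the identical c subunit of ATP synthase were transcribed, with 11.8 and 10.9 RPKM for Atp5g2, 4.83 and 5.71 for Atp5g1 and 4.17 and 3.93 for Atp5g3. Of all members, 26 overlap another gene, 8 of them on the same strand. Reads from near-identical copies elsewhere may have been lost when the authors kept uniquely aligned reads.

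The first comparison asked whether steady-state transcription of these genes differed between the genotypes. Levels in the libraries labelled EloA null were close to those of WT: the log2 ratio, on the log2(RPKM + 0.1) scale, had a median of 0.052 over the 89 members and of 0.033 over all 11345 genes tested. limma called 0 members at an adjusted p under 0.05 (0.00% of all genes tested), and 9 members had an unadjusted p under 0.05 (all genes: 18.4%), all of them higher (14.1%) and 0 lower (4.22%). Ratios of mean RPKM passed 1.5-fold, the limit of the study, for 3 higher members (all genes: 7.21%), all without overlap (6.24%), and 0 lower ones (2.10%). Both libraries labelled EloA null lay above both WT libraries for 25 members (all genes: 32.0%) and below them for 15 (21.4%). The log2 ratio was above 0 for 57 members (all genes: 56.2%), but for 42 when each library was centred on its median (all genes: 45.8%) and for 40 without EloA null replicate 1 (54.4%), the library with the wild-type label. The balance of higher and lower members in steady state thus changed side with the scaling and with that library.

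The 3 members past 1.5-fold were weakly transcribed. Ndufa4l2, an isoform of Ndufa4 known as a target of hypoxia (chr10:127514939-127517154), was at 0.299 and 0.256 RPKM in WT and 0.686 and 0.568 in the libraries labelled EloA null, 2.26-fold higher (limma adjusted p = 0.138), from 9 to 20 reads per library. Its WT mean of 0.277 was under the limit of 0.5, so it was tested only through the genotype where it was high and had to differ, here and at 10 min. It overlaps Shmt2 on the other strand, and although the libraries are directional and the authors separated reads by strand, whether the counts used strand is not given in the sources used here, so a share of reads from Shmt2 was not tested. Cox7a1 (chr7:30184171-30186030) was at 0.809 and 0.788 RPKM against 1.21 and 1.34, 1.59-fold higher (adjusted p = 0.111 by limma, 29 to 56 reads). Ndufb11, an accessory subunit of complex I on the X chromosome (chrX:20615326-20617619) that overlaps Rbm10 on the other strand, was at 0.509 and 0.871 against 1.11 and 0.991, 1.52-fold higher (limma adjusted p = 0.320). None of these sets of libraries overlapped.

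Better-measured genes moved less. Atp5d, the delta subunit of the F1 head (chr10:80142275-80145828), was at 1.26 and 1.53 RPKM in WT and 1.96 and 2.03 in the libraries labelled EloA null, 1.43-fold higher. Ndufa6, an accessory subunit (chr15:82350139-82354291), was at 3.50 and 3.18 against 5.17 and 4.28, 1.41-fold higher (limma adjusted p = 0.182). The largest falls in mean RPKM without overlap were smaller still. Atp5f1, the peripheral stalk subunit b (chr3:105942698-105959263), was at 4.73 and 4.74 RPKM in WT and 4.22 and 3.75 in the other genotype, 1.19-fold lower (limma adjusted p = 0.289). Ndufa12 was 1.18-fold lower, Sdha 1.16-fold, Cox5a 1.14-fold and the assembly factor Ndufaf5 1.12-fold. Complex II, whose 4 genes split into Sdha and Sdhd below WT and Sdhb and Sdhc with overlap, had a median log2 ratio of -0.030. The medians were 0.057 in complex I, 0.0049 in complex III, 0.059 in complex IV and 0.061 in complex V. The 8 assembly factors had a median of -0.097.

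**Figure D2:**
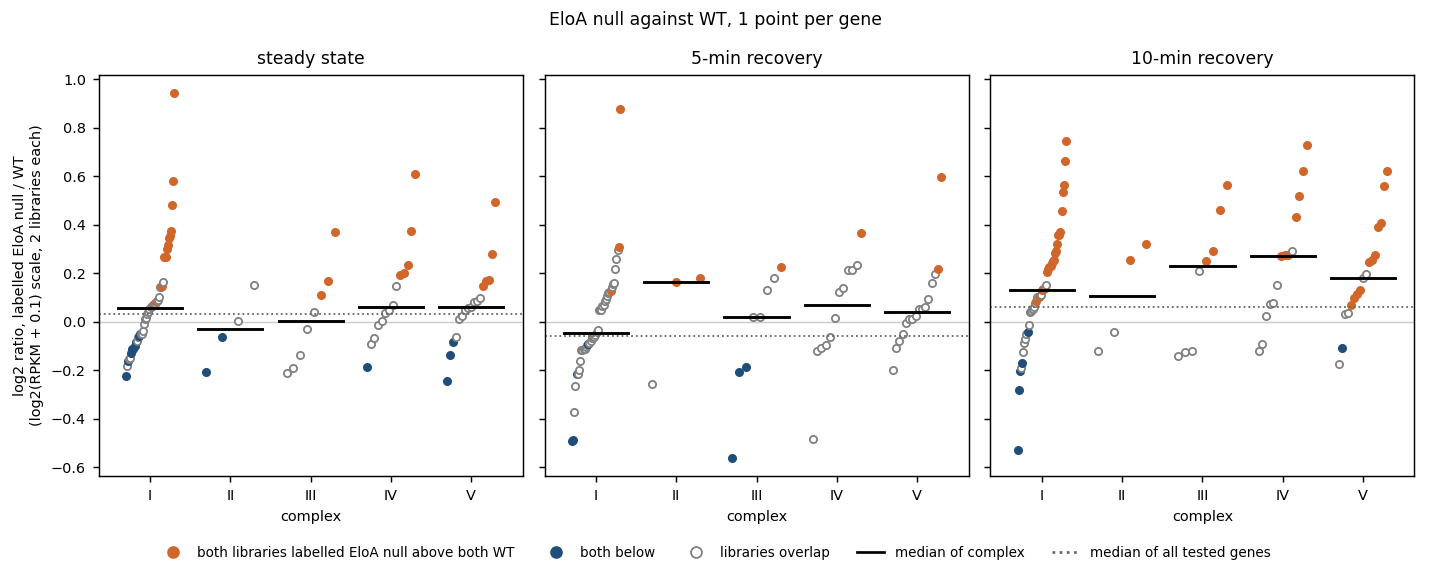
Log2 ratio of libraries labelled EloA null to WT for each tested member, by complex (x axis) and condition (panels), on the log2(RPKM + 0.1) scale. Filled points are genes whose 2 libraries of either genotype both lay above (orange) or below (blue) those of the other, black bars are medians per complex and the dotted line is the median of all tested genes; at 10 min 47 of 88 points are orange and 6 blue.

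After 5 min of recovery, the question was whether the genes resumed transcription alike in both genotypes. Of the members, 81 passed the expression limit, 0 passed limma's adjusted p (0.00% of 8984 genes tested) and 3 had an unadjusted p under 0.05 (all genes: 9.42%), 2 higher (4.54%) and 1 lower (4.88%). Past 1.5-fold were 2 higher members (all genes: 5.40%), both without overlap (4.36%), and 2 lower ones (6.72%), 1 of them without overlap (4.91%). Libraries did not overlap for 9 higher members (all genes: 15.4%) and 7 lower ones (25.0%), and the log2 ratio was above 0 for 44 (all genes: 40.6%). The median log2 ratio was 0.018 over the members and -0.060 over all genes tested. The 2 libraries labelled EloA null differed from each other at this time: the median was -0.15 without their replicate 2 and 0.15 without their replicate 1, with 24 of 81 (all genes: 36.4%) and 66 of 82 members (49.2%) above 0. With each library centred on its median, 20 members were higher (all genes: 21.7%) and 4 lower (20.0%) without overlap.

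Ndufb11 again stood highest, with 1.10 and 1.87 RPKM in WT and 2.38 and 3.09 in the libraries labelled EloA null, 1.85-fold higher (limma adjusted p = 0.489, 16 to 79 reads). Atp5k, the small membrane subunit e of ATP synthase (chr5:108433246-108434399), was at 2.71 and 2.36 RPKM in WT and 3.85 and 3.89 in the other genotype, 1.53-fold higher (adjusted p = 0.426 by limma). In WT and labelled EloA null libraries alike these genes rested on fewer than 80 reads. Cox4i1 (1.29-fold), Ndufa1 (1.26-fold) and Atp5h, the peripheral stalk subunit d (1.17-fold), were also higher without overlap. The other lower member past 1.5-fold was Cox6b2, with 2.02 and 0.983 RPKM in WT and 0.836 and 1.15 in the other genotype, with overlap and with 8 to 16 reads. The largest falls without overlap included 3 long genes of complex I. Ndufa12 (22.406 kb, chr10:94199035-94221440) was at 0.750 and 0.524 RPKM in WT and 0.483 and 0.363 in the libraries labelled EloA null, 1.51-fold lower (limma adjusted p = 0.683). Its mean in the latter, 0.423, was under the limit of 0.5, so it was tested only through WT. Ndufs4, an accessory subunit whose loss causes Leigh syndrome (100.3 kb, chr13:114287795-114388094), was at 0.999 and 0.872 against 0.647 and 0.623, 1.47-fold lower, from 762 to 1091 reads. Its limma adjusted p was 0.509 within the table and 0.0225 in a fit of all 12 libraries (log2 ratio -0.49, SE 0.091), which called 558 genes in all. It was the only call of a member in any fit tried. Uqcrh, the hinge protein of complex III (chr4:116066965-116075070), was at 5.69 and 7.22 RPKM in WT and 3.34 and 5.56 in the other genotype, 1.45-fold lower. Ndufaf2 and Uqcrc2 were each 1.17-fold lower.

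After 10 min of recovery most members stood higher in the null-labelled libraries than in WT. Among 88 members tested, the log2 ratio was above 0 for 68 (all 10239 genes tested: 58.5%), and both libraries lay above both WT libraries for 47 (all genes: 33.5%) and below them for 6 (21.8%). The median log2 ratio was 0.14, against 0.059 over all genes. Per library, the summed level of the 94 members was 598 and 616 RPKM in WT and 665 and 658 in the libraries labelled EloA null. limma called 0 members at an adjusted p under 0.05 (0.00% of all genes tested), with 19 members at an unadjusted p under 0.05 (20.5%), 18 of them higher (15.2%) and 1 lower (5.25%). Past 1.5-fold were 6 higher members (all genes: 9.41%), all without overlap (8.43%), and 0 lower ones (3.01%, and 2.25% without overlap). Centred on library medians, the counts without overlap were 29 higher (all genes: 25.4%) and 17 lower (31.7%), and the median log2 ratio was 0.046 against -0.037 over all genes. The size of the shift thus depended on the scaling.

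Complex IV had the highest median log2 ratio at this time, 0.27, followed by 0.23 in complex III, 0.18 in complex V, 0.13 in complex I and 0.11 in complex II. The 7 assembly factors tested had a median of 0.039. The 6 members past 1.5-fold came from complexes I, IV and V. Cox6a1 (chr5:115345652-115348958) was at 2.87 and 3.11 RPKM in WT and 5.17 and 4.18 in the libraries labelled EloA null, 1.56-fold higher (limma adjusted p = 0.147, 150 to 331 reads). Atp5d was at 1.79 and 2.13 RPKM against 3.10 and 3.01, 1.56-fold higher (adjusted p = 0.135 by limma). Both were also higher in steady state, where the libraries of Atp5d did not overlap and those of Cox6a1 did. Cox6b2 (chr7:4751792-4753094) was at 1.32 and 1.52 RPKM in WT and 2.31 and 2.53 in the other genotype, 1.70-fold higher. Ndufaf8, an assembly factor of complex I (chr11:120098934-120100424), was at 0.849 and 0.725 against 1.70 and 1.12, 1.79-fold higher from 16 to 34 reads. Ndufa4l2, under the limit in WT (mean 0.352), was 1.75-fold higher from 9 to 20 reads, and Ndufb11 1.51-fold higher from 52 to 143 reads. Their limma adjusted p-values were 0.111 for Cox6b2, 0.199 for Ndufaf8, 0.195 for Ndufa4l2 and 0.182 for Ndufb11.

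Of the 6 members below WT without overlap at 10 min, Ndufaf3, an assembly factor of complex I (chr9:108565587-108567436), had the largest difference. Its RPKM was 4.18 and 4.87 in WT and 3.11 and 3.09 in the libraries labelled EloA null, 1.46-fold lower (limma adjusted p = 0.143), over 419 intronic bases and 26 to 45 reads. Ndufa12 (1.57 and 1.37 RPKM against 1.13 and 1.24) was 1.23-fold lower, Ndufaf5 1.16-fold, Ndufs4 1.14-fold Atp5c1, the gamma subunit of the central stalk, 1.08-fold and the accessory subunit Ndufb3 1.03-fold. Ndufa12, Ndufaf5, Ndufs4 and Atp5c1 are longer than 20 kb, Ndufb3 is 9.568 kb and Ndufaf3 1.85 kb. Of the 4 feeder markers tested at 10 min, 3 were lower without overlap as well, and their part in these values was not tested.

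Across the conditions, 80 members were tested in all 3, and 2 of them, Cox4i1 and Ndufb11, were higher without overlap each time (8.79% of the 8216 genes tested in all 3). Cox4i1 (chr8:120668225-120674209) was at 7.28 and 6.41 RPKM in WT and 7.38 and 8.30 in the libraries labelled EloA null in steady state, at 9.61 and 8.21 against 11.2 and 11.7 at 5 min and at 10.2 and 10.95 against 13.1 and 12.4 at 10 min, or 1.15-, 1.29- and 1.21-fold higher. The pairs were well apart in recovery and nearly touched in steady state. Another 2, Ndufa12 and Ndufs4, were lower each time (all genes: 10.1%). In the fit of all 12 libraries, limma found 0 members whose ratio differed between steady state and 5 min (0.100% of 11973 genes) or 10 min (0.00835%) at an adjusted p under 0.05. At an unadjusted p under 0.05 there were 4 members (all genes: 6.51%) and 1 member (1.64%). The smallest p among these was that of Uqcrq of complex III, which was higher without overlap in steady state (2.78 and 2.89 RPKM against 3.64 and 3.76), lower at 5 min (4.68 and 4.55 against 3.64 and 4.48) and higher at 10 min (3.53 and 3.48 against 4.49 and 5.28). Its ratio changed by -0.56 on the log2 scale from steady state to 5 min (SE 0.16, unadjusted p = 0.00897, limma adjusted p = 0.616).

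The recovery levels were then set against gene length. The RefSeq span of the members had a median of 7.08 kb, against 18.1 kb over the genes tested in steady state, and 65 of the 94 were shorter than 10 kb. How the 3 tables were scaled to each other is not given in the sources used here, and RPKM relates reads to the library total, so the ratios of recovery to steady state are a description with no test. In WT, the mean RPKM at 5 min divided by that in steady state had a median of 1.196 over the 88 members with more than 0.5 RPKM in steady state, against 0.632 over 10764 genes, and at 10 min the medians were 2.27 and 1.03. Members thus took a larger share of the library in recovery than in steady state, 55 of 88 at 5 min and 79 of 88 at 10 min (all genes: 28.3% and 51.3%). The libraries labelled EloA null gave medians of 1.204 and 2.35 over 89 members.

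Members of 3 to 10 kb led at 5 min, with a median ratio of 1.69 in WT (all genes of that span: 0.809). Ndufa4 (7.079 kb) went from 4.41 and 4.51 RPKM in steady state to 18.3 and 22.3 at 5 min in WT, a ratio of 4.55, and stood at 16.5 and 18.2 at 10 min. In the libraries labelled EloA null it went from 4.39 and 4.02 to 18.4 and 27.0, a ratio of 5.41. Atp5l (4.01 in WT), Ndufb6 (3.55), Cox7a2 (3.52), Atp5j (3.30) and Uqcrfs1 (3.24) had the next highest ratios. Members of 20 to 40 kb lagged behind those of 3 to 10 kb, with a median ratio of 0.597 at 5 min and 1.81 at 10 min. All genes of 20 to 40 kb had lower medians, 0.466 and 1.16. Sdha (27.986 kb) was at 1.27 and 1.35 RPKM at 5 min and 4.66 and 3.98 at 10 min, ratios of 0.362 and 1.19, and Ndufaf5 (34.607 kb) had ratios of 0.216 and 0.660. The longest expressed member, Ndufaf2 (106.037 kb), had a ratio of 1.21 at 5 min and 0.456 at 10 min, and Ndufs4 had 0.378 and 0.544. Members under 3 kb had medians of 0.990 and 1.24 in WT (all genes of that span: 0.751 and 0.900), with ratios from 0.150 to 2.21 at 5 min. Cox7c (1.998 kb) stood at 10.4 and 10.8 RPKM in steady state, 9.93 and 11.1 at 5 min and 12.2 and 11.6 at 10 min in WT. The short gene Cox8b was nearly absent at 5 min, with 0.177 and 0.276 RPKM in WT and 0.147 and 0.0506 in the other genotype, from 1 to 4 reads, before it returned to 1.58 and 0.793 in WT at 10 min. From 3 kb upward, the ratio fell with span at 5 min (Spearman rho -0.44 over 71 members in WT, -0.39 in libraries labelled EloA null), less so at 10 min (-0.18 and -0.19). With the members under 3 kb included, rho was weaker at 5 min (-0.20 over 88 members in WT, -0.14 over 89 in the other genotype). At 10 min it was then above 0 (0.13 and 0.11). These are correlations across genes, which share the libraries and are not replicates.

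**Figure D3:**
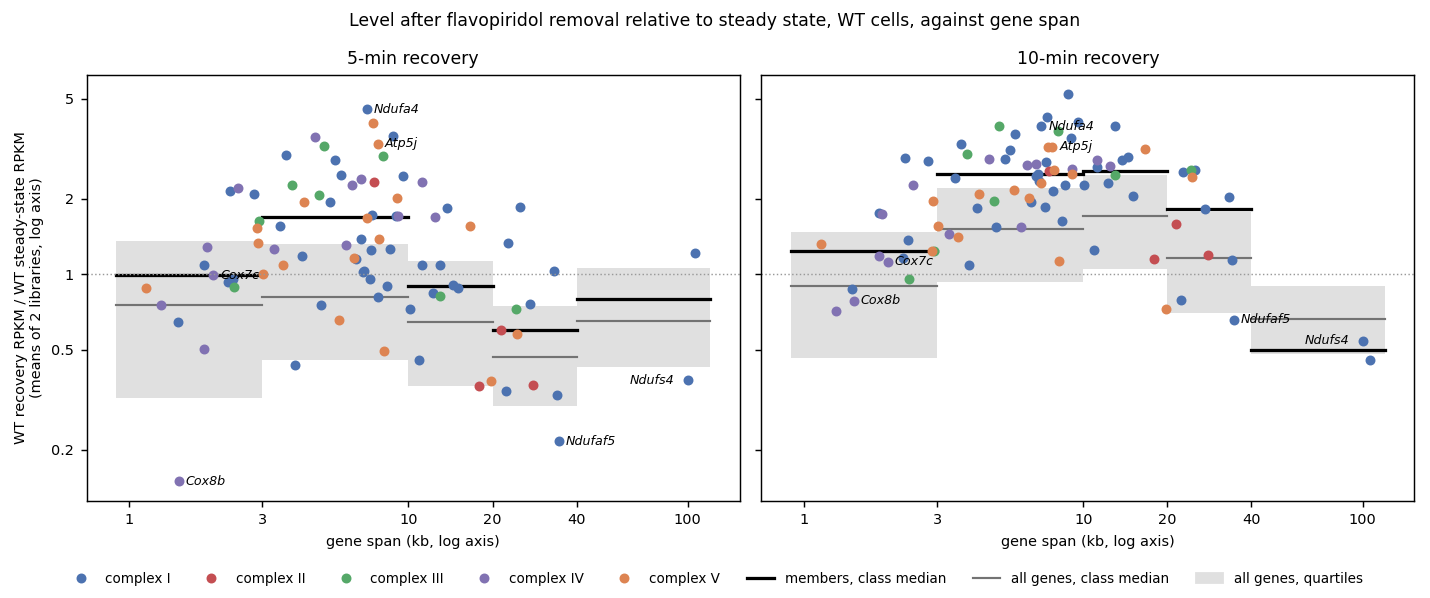
WT recovery level divided by WT steady-state level (means of 2 libraries, log axis) against gene span in kb (log axis), 1 point per member coloured by complex, at 5 min (left) and 10 min (right). Black bars are member medians and grey bars with shading the medians and quartiles of all genes per length class; members of 3 to 10 kb have medians of 1.69 and 2.50 and lie above the grey bars in both panels.

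The complexes also differed in recovery. Complex II, with 3 of its 4 genes over 10 kb, had a median ratio of 0.479 at 5 min in WT and 1.39 at 10 min, and the short Sdhd stood apart with 2.34 at 5 min. Its level went from 3.85 and 3.95 RPKM in steady state to 9.31 and 8.93 at 5 min and 9.14 and 10.9 at 10 min. The medians at 5 min were 1.09 in complex I, 1.85 in complex III, 1.496 in complex IV and 1.33 in complex V, and at 10 min they were 2.30, 2.55, 2.00 and 2.09 in that order.

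Length also ordered the ratios between genotypes. In the libraries labelled EloA null, members under 3 kb had a median log2 ratio of 0.079 in steady state and 0.40 at 10 min, and those of 20 to 40 kb had -0.085 and -0.12. All tested genes ran the same way, from 0.18 and 0.25 under 3 kb to -0.012 and -0.025 at 20 to 40 kb. At 10 min, both libraries labelled EloA null lay above WT for 15 of 18 members under 3 kb (all genes of that span: 38.8%), 25 of 44 at 3 to 10 kb (56.2%), 7 of 14 at 10 to 20 kb (33.3%), 0 of 11 at 20 to 40 kb (21.6%) and 0 of 1 over 40 kb (21.3%). The share of higher members at 3 to 10 kb, the largest class, was thus near that of all genes of the same span. At 5 min the order was weaker, with medians of 0.016 under 3 kb, 0.053 at 3 to 10 kb and -0.14 at 20 to 40 kb.

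**Figure D4:**
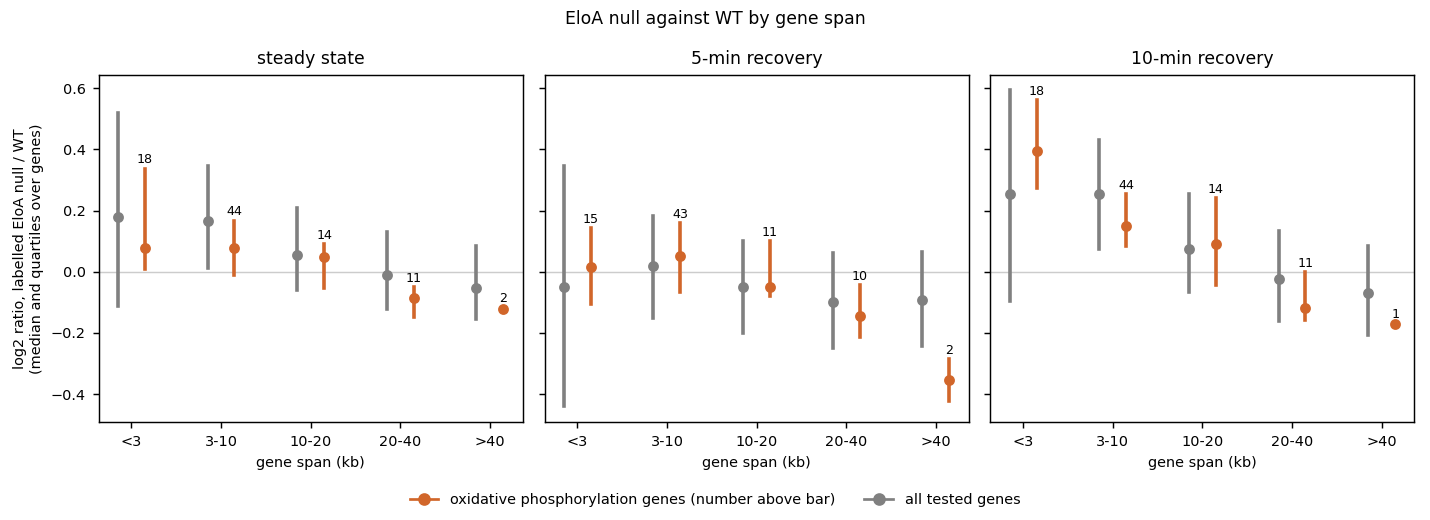
Log2 ratio of libraries labelled EloA null to WT by gene span class in kb, for the oxidative phosphorylation genes (orange, number of genes above each bar) and all tested genes (grey), with the median as a point and the quartiles as a bar. Medians fall from short to long genes in both sets in steady state and at 10 min, for the members from 0.40 under 3 kb to -0.12 at 20 to 40 kb at 10 min.

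Ratios by motif are given as a description. Members with an NRF1 match had a median log2 ratio of 0.066 in steady state (18 members) and those without one 0.040 (57 tested), at 5 min the medians were 0.12 and -0.033, and at 10 min they were 0.20 and 0.14. At 10 min, 14 of 18 members with an NRF1 match and 27 of 56 without one were higher without overlap (all genes: 33.5%). With and without an ETS match, 10 of 17 and 31 of 57 were higher without overlap, and the medians were 0.25 and 0.13. The 2 NRF1 groups had median spans of 6.84 and 7.37 kb. Members with an ETS match were shorter, with a median span of 4.87 kb against 7.35 kb without one. The part of gene length in these ratios was not tested. In steady state, the genes of the promoters shown above had no common direction. Sdha and Sdhd were lower, Ndufb4 was higher (3.27 and 3.23 RPKM against 3.42 and 3.45) and Cox6a1 overlapped.

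Other genes around the complexes, which are not members by symbol, were counted from fixed lists. Of 52 partners (among them carriers, assembly factors and the ATPase inhibitor), 49 were tested in steady state, 40 at 5 min and 47 at 10 min. In each condition limma called 0 of them at an adjusted p under 0.05. An unadjusted p under 0.05 was found for 7 in steady state (all genes: 18.4%), 7 at 5 min (9.42%) and 11 at 10 min (20.5%). Their median log2 ratios were 0.026 in steady state, -0.0052 at 5 min and 0.066 at 10 min. Uqcc2, an assembly factor of complex III, was 1.58-fold higher in steady state (1.11 and 1.09 RPKM in WT, 1.73 and 1.73 in the libraries labelled EloA null), and Cycs, cytochrome c, was lower (3.17 and 2.42 against 1.97 and 1.59). Ttc19, also known for complex III, was lower at 5 min (19.3 and 20.3 RPKM against 12.5 and 12.5) and at 10 min (15.3 and 13.5 against 9.10 and 9.13, limma adjusted p = 0.103). Sdhaf1, an assembly factor of complex II, was higher at 10 min (0.330 and 0.141 against 0.777 and 0.869).

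Of 15 regulators of these genes, 13 were tested in steady state with a median log2 ratio of -0.014, 10 at 5 min with -0.16 and 12 at 10 min with -0.064. limma called 0 of them, and 1, 0 and 3 had an unadjusted p under 0.05 (all genes: 18.4%, 9.42% and 20.5%). Esrra, which encodes the nuclear receptor ERRα, was at 0.852 and 0.769 RPKM in WT and 1.52 and 1.2502 in the libraries labelled EloA null at 10 min, 1.71-fold higher. Myc was 2.77-fold higher at 10 min (0.364 and 0.345 against 0.895 and 1.07, limma adjusted p = 0.0968), and like Sdhaf1 it was under the limit of 0.5 in WT and tested only through the other genotype. Tfb2m, a mitochondrial transcription factor, was lower in all 3 conditions (at 10 min 11.97 and 10.8 against 8.91 and 9.19). The neighbouring group of 78 mitochondrial ribosomal protein genes (Mrpl and Mrps), also short nuclear genes for mitochondrial proteins, had median log2 ratios of 0.054, 0.0040 and 0.17, with 32 of 78 higher (all genes: 33.5%) and 8 lower (21.8%) without overlap at 10 min. Those are near the medians of the oxidative phosphorylation genes, and the difference between the groups was not tested.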

How the data were processed

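Bru-seq libraries of WT and EloA null mESCs were analysed (12 libraries, 2 per group). According to the methods and processing notes, the authors aligned paired-end reads to mm10 and dm3 with Bowtie2 2.3.4.3, kept uniquely aligned reads, counted reads in RefSeq genes with featureCounts 1.6.1, normalized with edgeR and deposited RPKM values in 1 table per condition. Scaling between tables and the RefSeq release are not given in the sources used here. The methods give another amount of input RNA than the labels.

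RPKM values became whole reads (within 0.05) for 96.9% to 97.2% of matched genes. This held when gene length was taken as summed introns with the exon base on each side. The methods describe counting over whole genes, and a fitting length does not show which reads were counted. Reads were used for depth only. Of the 94 members, 92 matched GRCm38.p6 by symbol, 2 by an older symbol, and 92 gave whole reads. For Atp5f1 the length is approximate.

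Genes with a mean RPKM above 0.5 in either genotype were tested within a table in limma 3.58.1 (R 4.3.3), with values as log2(RPKM + 0.1), an intensity trend and Benjamini-Hochberg adjustment over all of them (threshold 0.05). The difference between conditions was tested over 12 libraries. The pseudocount shrinks ratios of low genes. An exact permutation test of 2 against 2 libraries cannot give a p below 0.333 and was not used. The steps were tested on data simulated for steady state only. Most genes changed 1.5-fold and many of those changed 2-fold were not called there, so a lack of calls does not show a lack of such changes. Read counts were not used for tests, so no interval for counting error is given.

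Named were the 2 highest WT genes per complex (all 4 of complex II), the 5 largest rises and falls without overlap and every member past 1.5-fold without overlap per condition, and the isoform sets; any other member was named after its values were seen. Of the other lists, the 2 largest changes in a direction were eligible. Members, lists and tests were chosen with earlier results of these data known. The values of 1 member are not reported here on their own, and it is not in the plot of levels. The 16 CUT&RUN and ChIP samples were not analysed here. Sequences are from RefSeq, GRCm38.p6.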

Additional observations from a re-analysis of the deposited data

How the results depend on the processing

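limma called 0 members in each condition under every alternative except the fit of 12 libraries, which called 1 at 5 min (Ndufs4, above), and 0 with the replicate number as a block. Over all genes, the fit of 12 libraries called 136 in steady state, 558 at 5 min and 360 at 10 min, the block 0, 128 and 0, robust variance 81, 29 and 26, and a library left out 0 in steady state, 0 to 90 at 5 min and 0 to 81 at 10 min. The block was not used as pairing, since each condition has only 2 pairs of libraries: same-numbered libraries deviated together with correlations of 0.101, 0.119 and 0.103. The test of differing effects gave 0 members under all 4 of its alternatives.

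Counts past 1.5-fold followed the limit. With a 2-fold limit they were 1 in steady state, 0 at 5 min and 0 at 10 min (all genes: 315 of 11345, 438 of 8984 and 406 of 10239). With a limit at means differing by 25% they were 11, 11 and 21 (all genes: 2801, 2821 and 3319). Quantile normalization gave 1, 2 and 3 (all genes: 901, 1085 and 1111), and centring gave 2 at 5 min (all genes: 1096). Leaving out a library gave 2 to 4 in steady state (all genes: 1140 to 1360) and 7 to 9 at 10 min (1167 to 1785). At 5 min leaving out a library gave 2 to 7. The count was 2 without WT replicate 1 (all genes: 1276) and 7 without WT replicate 2 (1685), so that of all genes rose as well. Of the median log2 ratios, that of steady state ran from -0.022 (without EloA null replicate 1) to 0.087 with a library left out and was -0.0074 after centring. At 5 min it ran from -0.15 to 0.15. At 10 min it ran from 0.14 to 0.17 and was 0.12 with a pseudocount of 1, 0.046 after centring, 0.049 after quantile normalization and 0.17 for structural subunits only.

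The counts without overlap and above 0 under other scalings were chosen after seeing the data. Higher without overlap, centred and by quantile, were 19 and 20 in steady state (all genes: 25.9% and 23.8%), 20 and 14 at 5 min (21.7% and 20.4%) and 29 and 28 at 10 min (25.4% and 25.6%). Lower were 20 and 19 in steady state (30.9% and 32.5%), 4 and 9 at 5 min (20.0% and 22.1%) and 17 and 18 at 10 min (31.7% and 31.9%). With a library left out, members above 0 numbered 40 to 63 in steady state (all genes: 49.2% to 60.8%). They numbered 24 to 66 at 5 min (34.7% to 49.2%) and 61 to 68 at 10 min (51.7% to 61.9%). The cause of these changes was not tested. Leaving out chromosome 14, which holds 0 members, kept the medians of the members and moved those of all genes to 0.024, -0.071 and 0.047. Short genes rest on few reads, which limits Ndufa4l2, Ndufaf8, Cox8b and Ndufb11.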
